A study of Mus musculus with 6 samples.

Results

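A set of Krüppel-like factor genes other than Klf1 was followed in adult mouse megakaryocyte-erythroid progenitors (MEPs) with and without forced Nanog expression. The set was fixed by name and comprised 10 genes, Klf2, Klf3, Klf4, Klf5, Klf6, Klf7, Klf9, Klf10, Klf12 and Klf13. Of these, 9 were among the 12101 genes of the expression table, and Klf12 was not listed. All 9 reached 1 CPM (reads scaled to a common library size) in at least 5 of the 6 libraries and were tested. Klf8, Klf11 and Klf16 were also listed but stood outside the set, among the related genes, so the members are not the whole family.

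MEPs were sorted from bone marrow as c-Kit+ cells that were negative for lineage markers, Sca-1, CD34 and CD16/32. Every library came from adult mice labelled as CD-1 strain, carrying R26-M2rtTA, which places the doxycycline-responsive transactivator at the ubiquitously expressed Rosa26 locus, and Col1a1-tetO-Nanog, a Nanog cDNA under a tetracycline operator placed downstream of Col1a1. The dox-treated group (3 libraries) drank doxycycline for 5 days, and the untreated group (3 libraries) had the same genotype and no doxycycline. Nanog was therefore induced throughout the animal and not in MEPs alone, and no group received doxycycline without the transgene, so effects of the drug and of Nanog cannot be told apart. Ages beyond adult were not given, nor whether replicates were separate animals or pools, so p-values measure the spread between these libraries, which may be technical.

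Krüppel-like factors are transcription factors with a conserved set of zinc fingers at the carboxy terminus that bind CACCC and GC-rich boxes in promoters and enhancers. Klf1 is the erythroid founder of the family and drives globin and red cell genes, and several relatives bind the same boxes as activators or repressors. In embryonic stem cells Klf2, Klf4 and Klf5 act beside Nanog in self-renewal and bind its regulatory regions. Klf3 recruits the CtBP co-repressors and is itself a target of Klf1 in red cell precursors.

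In dox-treated MEPs, Klf7 rose to a mean of 26.2 ± 5.13 CPM from 6.35 ± 1.19 CPM (SD over 3 libraries each), and it was the 1 member past an adjusted p of 0.05 by limma with Benjamini-Hochberg adjustment over all genes tested. No member passed that threshold in the other direction. Klf7 shares exonic bases with a neighbour on the opposite strand, so its level and change are uncertain by that share. Klf5 was higher and Klf9 lower in every dox-treated library than in every untreated one, with adjusted p-values of 0.0862 and 0.0725 (limma). Klf2 and Klf4 had lower means with dox and overlapping ranges. Klf3, Klf6, Klf10 and Klf13 had mean differences of 0.15 or less on the log2 scale, with intervals of unequal width.

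The promoter windows of Klf7, Klf9, Klf2 and Klf4 are shown first, since they belong to the member that rose and to the 3 members with the largest lower means. Each runs from 250 bases before to 50 bases after the RefSeq gene start, 5′ to 3′ on the gene's own strand, in build GRCm38.p6. Windows were matched by symbol for 8 of the 10 members. Klf5 and Klf10 are named only. Capitals mark CACCC boxes on either strand, written CACCC or GGGTG, and in Klf2 also the 1 match to the MEF2 consensus. The windows lie at chr1:64121340-64121639 on the minus strand for Klf7, chr19:23140976-23141275 on the plus strand for Klf9, chr8:72318812-72319111 on the plus strand for Klf2 and chr4:55532426-55532725 on the minus strand for Klf4.
Klf7: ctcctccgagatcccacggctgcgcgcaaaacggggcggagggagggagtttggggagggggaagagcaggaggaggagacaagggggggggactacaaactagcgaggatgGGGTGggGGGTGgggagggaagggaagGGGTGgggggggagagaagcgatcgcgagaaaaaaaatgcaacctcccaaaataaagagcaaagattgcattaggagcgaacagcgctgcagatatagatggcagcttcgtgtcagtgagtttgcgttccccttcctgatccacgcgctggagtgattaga
Klf9: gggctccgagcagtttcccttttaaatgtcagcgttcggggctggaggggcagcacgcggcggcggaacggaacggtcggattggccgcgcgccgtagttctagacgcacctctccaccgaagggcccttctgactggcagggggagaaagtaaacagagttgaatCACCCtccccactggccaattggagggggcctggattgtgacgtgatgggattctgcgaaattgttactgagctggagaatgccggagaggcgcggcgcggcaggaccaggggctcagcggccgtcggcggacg
Klf2: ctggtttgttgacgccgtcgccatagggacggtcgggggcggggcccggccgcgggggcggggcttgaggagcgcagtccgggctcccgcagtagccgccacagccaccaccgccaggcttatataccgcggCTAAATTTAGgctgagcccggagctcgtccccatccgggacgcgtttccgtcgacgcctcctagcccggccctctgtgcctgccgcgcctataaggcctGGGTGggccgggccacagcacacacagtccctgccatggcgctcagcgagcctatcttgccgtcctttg
Klf4: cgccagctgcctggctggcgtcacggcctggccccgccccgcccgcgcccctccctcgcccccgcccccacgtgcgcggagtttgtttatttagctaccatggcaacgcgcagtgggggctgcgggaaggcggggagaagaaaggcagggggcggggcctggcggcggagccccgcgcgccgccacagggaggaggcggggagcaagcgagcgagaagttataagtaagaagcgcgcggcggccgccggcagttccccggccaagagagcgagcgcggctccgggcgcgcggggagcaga

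The Klf7 window held 3 CACCC boxes, the Klf9 and Klf2 windows 1 each and the Klf4 window none. A CACCC box on either strand was present in 57.5% of 32851 promoter windows of the same length. Among the other matched members, Klf3 had 5 boxes, Klf12 and Klf13 1 each, and Klf6 none. The GC box GGGCGG, present in 35.7% of windows, occurred 6 times in Klf3, 4 in Klf4, 3 in Klf13, 2 in Klf2, 1 time each in Klf6 and Klf7, and not in Klf9 or Klf12. The MEF2 consensus was found in 3.19% of windows and, among the 8 members, in Klf2 alone. The letters TGACG, the core of a cAMP response element, occurred in 20.8% of all windows and 1 time each in Klf2, Klf3, Klf4, Klf9, Klf12 and Klf13, and not in Klf6 or Klf7. The GATA letters AGATAA, in 11.2% of windows, and the homeodomain letters TAATGG, in 7.73%, were in none of the 8 windows. All motifs were searched on both strands, CACCC and GGGCGG letters can lie next to each other in GC-rich stretches, and a match describes letters and not a bound site. The GC content of the windows was 58.3% for Klf7, 63.3% for Klf9, 69.3% for Klf2 and 74.3% for Klf4, beside a median of 52.7% over all windows.

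The libraries held 11264803 to 16153600 reads on listed genes, and at the normalized library sizes behind the deposited values 1 read equalled 0.0642 to 0.091 CPM. The groups were checked by Nanog, which had 15959 to 19609 reads in dox-treated and 1 to 13 reads in untreated libraries, transgene and endogenous gene together. Dox-treated replicate 3 stood apart, at -14.8 on the first principal component against -57.5 and -56.4 for the other dox-treated libraries and 35.1 to 54.2 for the untreated ones, and it received an array quality weight of 0.163. The results for the Klf genes and the counts in the gene lists are therefore given with and without it. Over all 12088 genes tested, 4.59% rose and 3.18% fell at an adjusted p under 0.05, and without dox-treated replicate 3 these shares were 14.9% and 14.0%.

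The labelled cell type was compared with marker lists. Kit stood at 304.4 to 322.7 CPM with dox and 327.5 to 485.6 CPM without, and the 14 erythroid markers were all listed, with a summed level of 4689 to 8875 CPM and 7595 to 8148 CPM, and 1 of them, Ermap, fell (-0.77 on the log2 scale) and none rose. Without dox-treated replicate 3, 9 of the 14 fell and none rose (limma). Hbb-b1 (1.21, adjusted p = 0.143, limma) and Alas2 (0.75, adjusted p = 0.139) had higher means with dox, and their groups overlapped. Of the 14 markers, 10 had lower means. Much of the erythroid sum was Car1 (1279.8 to 3358.7 CPM with dox and 2034.1 to 2506.0 CPM without) and Car2 (1758.5 to 3014.1 CPM and 2471.4 to 2849.6 CPM). Both were highest of all libraries in dox-treated replicate 3. Ly6a, the gene of Sca-1, was not listed, while Cd34 (1.47, adjusted p = 0.114, limma) was at 62.8 to 171.7 CPM with dox and 23.8 to 57.7 CPM without, and passed without dox-treated replicate 3 (1.88, adjusted p = 0.0347, limma). Of the other gate genes, the CD16 gene Fcgr3 had a log2 difference of -1.03 (adjusted p = 0.146, limma). All 16 granulocyte and monocyte markers were listed, and 9 fell and none rose, led by Fcnb (-3.96), Elane (-3.22), Cebpe (-2.85) and Prtn3 (-2.79), and their summed level was 537.2 to 809.8 CPM with dox against 2379 to 5497 CPM without. The count was 10 of the 16 without dox-treated replicate 3. Of 10 listed megakaryocyte markers, Gp9 (1.28) and Gp1ba (0.90) rose and Vwf fell (-1.31), with a summed level of 190.0 to 484.8 CPM against 130.7 to 167.1 CPM, and 4 rose and 2 fell without dox-treated replicate 3. Much of the difference between the sums lay in Itga2b. It was at 319.1, 314.1 and 66.9 CPM in dox-treated replicates 1 to 3 and 24.1 to 39.3 CPM without dox. Itga2b did not pass with all libraries (2.52, adjusted p = 0.0694, limma), and 4 of the 10 markers had lower means with dox. Of 4 listed mast cell and basophil markers, Cpa3 (2.93) and Ms4a2 (2.75) rose, while Gzmb (-3.42, adjusted p = 0.0525, limma) and Mcpt8 (-0.93, adjusted p = 0.201) had lower means, and the sum of the 4 was 60.9 to 81.7 CPM against 10.9 to 18.9 CPM. Gzmb passed without dox-treated replicate 3 (-4.27, adjusted p = 0.00696, limma), and Fcer1a, Tpsb2, Cma1, Hdc and Prss34 were not listed. Of 4 listed endothelial and stromal markers, Col1a2 (3.50) and Tek (3.36) rose, with a sum of 40.8 to 166.5 CPM against 5.62 to 13.8 CPM, while Cdh5, Col1a1, Cxcl12, Lepr and Pdgfra were not listed. The calls of Col1a2 and Tek held without dox-treated replicate 3. Most of the sum with dox was the collagen gene Col1a2 (95.8, 113.3 and 28.7 CPM in replicates 1 to 3). Kdr (0.52, adjusted p = 0.632, limma) and Emcn (1.61, adjusted p = 0.33) overlapped between the groups. None of 7 listed stem cell markers passed the test with all libraries (Mecom 2.04, Hlf 1.71), but 5 were higher without dox-treated replicate 3 (limma). Their sum was 139.0 to 332.5 CPM against 62.9 to 128.4 CPM. None of 9 listed lymphoid markers passed, with or without dox-treated replicate 3 (Dntt 1.51, Flt3 0.94), and their sum was 50.9 to 143.3 CPM against 46.7 to 74.6 CPM, with Cd3e, Cd3g, Pax5, Cd2 and Ccr7 not listed. Over 18 alternative fits each (limma), the adjusted p-value was under 0.05 in 9 for Tek and Gp1ba, in 12 for Col1a2, Gp9, Ermap and Ms4a2, and in 14 to 17 for Vwf, Cpa3 and the 4 named granulocyte and monocyte markers, and it reached 0.159 at most, for Gp1ba. In bulk RNA, fewer cells of a type and less RNA per cell cannot be told apart. The sums of the granulocyte and monocyte, megakaryocyte, mast cell and basophil, stem cell, and endothelial and stromal lists did not overlap between the groups. Those of the erythroid and lymphoid lists did. These sums lean on their most abundant genes, and the part of any list in the Klf results was not tested.

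Klf7, named for its broad expression and known for its role in neuron outgrowth, lies at chr1:64076021-64168856 on the minus strand of NCBIM37. Its level was 7.19, 4.99 and 6.87 CPM in untreated replicates 1 to 3 and 23.8, 32 and 22.6 CPM in dox-treated replicates 1 to 3. The 3 dox-treated values sat close together and all lay far above the untreated ones, and dox-treated replicate 3 did not differ from its group here as it did over all genes. The log2 fold change was 2.04 (SE 0.21, adjusted p = 0.0101, limma), or 4.12-fold with a 95% interval of 2.90 to 5.86. The two-sided exact permutation test on the 6 libraries gave p = 0.1, the smallest value that 3 against 3 libraries allow. With dox-treated replicate 3 left out the change became 2.14 (limma, adjusted p = 0.00884), and leaving out each library in turn gave 1.88 to 2.14. Over 18 alternative fits the adjusted p-value ran from 0.00174 to 0.0654 (limma). The counts behind these levels were 323, 430 and 352 reads with dox and 92, 67 and 75 reads without.

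Klf7 shares sequence with a neighbour. Gm17427, a long intergenic non-coding RNA annotated on the opposite strand, overlaps 3196 exonic bases of Klf7, and the library kit is not labelled as directional. Gm17427 was at 0.43, 0.78 and 1.32 CPM in untreated replicates 1 to 3 and 6.44, 5.40 and 5.61 CPM in dox-treated replicates 1 to 3. It moved in the same direction as Klf7 (log2 fold change 2.93, SE 0.40, adjusted p = 0.0175, limma), and its reads were fewer, at most 87 in any library against 323 to 430 for Klf7 with dox. Reads from the shared bases cannot be assigned to either gene without strand, so the level and the fold change of Klf7 are uncertain by that share. The read counts of both genes rest on the same assignment and do not bound it.

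**Figure D1:**
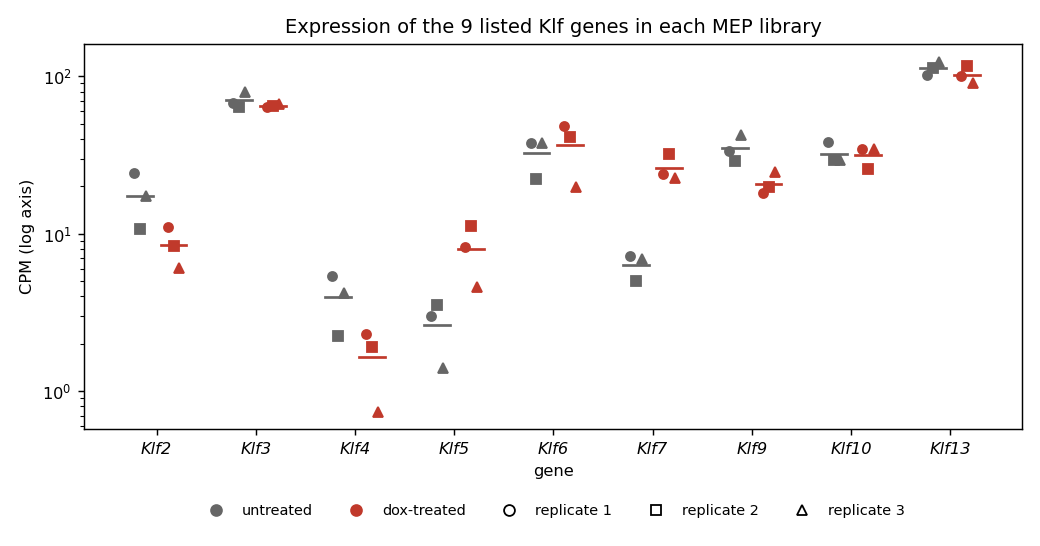
Expression of the 9 listed members, in CPM on a log axis, with 1 point for each library (grey untreated, red dox-treated, symbol by replicate) and a bar at the group mean. Klf7 sits at 22.6 to 32 CPM with dox and 4.99 to 7.19 CPM without, Klf5 is higher and Klf9 lower in every dox-treated library, and the other 6 genes overlap between groups.

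Klf5, Klf2 and Klf4 are the members known from embryonic stem cells, where they sustain self-renewal beside Nanog. Klf5 lies at chr14:99697910-99712624 on the plus strand of NCBIM37. It was at 2.99, 3.51 and 1.41 CPM in untreated replicates 1 to 3 and at 8.21, 11.2 and 4.59 CPM in dox-treated replicates 1 to 3. Every dox-treated value lay above every untreated one, and replicate 3 was the lowest of both groups. The log2 difference was 1.61 (SE 0.46, 95% interval 0.48 to 2.74) and did not pass the test (adjusted p = 0.0862, limma). The exact permutation test gave p = 0.1. Klf5 passed once dox-treated replicate 3 was left out, at 1.97 (limma, adjusted p = 0.0347, range over the alternatives 0.00843 to 0.237). The level rests on 15 to 150 reads a library. Several summed marker levels were also lowest in replicate 3 among dox-treated libraries. These were the stem cell, megakaryocyte, endothelial and stromal, granulocyte and monocyte, and mast cell and basophil markers (139.0, 190.0, 40.8, 537.2 and 60.9 CPM). Among untreated libraries the same sums were all lowest in replicate 2 (62.9, 130.7, 5.62, 2379 and 10.9 CPM), where Klf5 was highest. Their part in the Klf5 values was not tested.

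Klf2, which in lymphocytes keeps resting T cells quiescent and in embryos takes part in globin expression, lies at chr8:74842932-74845555 on the plus strand. It was at 24.4, 10.7 and 17.3 CPM in untreated replicates 1 to 3 and at 11, 8.30 and 6.06 CPM in dox-treated replicates 1 to 3. The groups overlapped, since untreated replicate 2 lay just below dox-treated replicate 1, and the untreated libraries spread more widely than the dox-treated ones. The log2 difference was -1.01 (SE 0.36, 95% interval -1.89 to -0.13, adjusted p = 0.131, limma), with an exact permutation p of 0.2. Klf4, one of the factors used to reprogram fibroblasts and a gene of monocyte differentiation, lies at chr4:55540013-55545347 on the minus strand and was scarce. It was at 5.40, 2.25 and 4.23 CPM in untreated replicates 1 to 3 and at 2.32, 1.90 and 0.74 CPM in dox-treated replicates 1 to 3. Untreated replicate 2 again fell below dox-treated replicate 1. The log2 difference was -1.33 (SE 0.53, 95% interval -2.62 to -0.04, adjusted p = 0.16, limma), with an exact permutation p of 0.2. The lowest value rested on 11 reads in dox-treated replicate 3, with a 95% exact Poisson interval of 5.49 to 19.7 reads that covers counting error only. Without that library the differences were -0.79 for Klf2 and -0.83 for Klf4, with adjusted p-values of 0.169 and 0.171 (limma). Over all alternatives these ran from 0.0386 to 0.293 for Klf2 and from 0.0406 to 0.333 for Klf4.

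Klf2 and Klf4 ordered the libraries alike within each group. Untreated replicate 1 was highest, replicate 3 next and replicate 2 lowest for both genes, and dox-treated replicate 1 was highest, replicate 2 next and replicate 3 lowest. The summed granulocyte and monocyte markers had the same order, with 5497, 3927 and 2379 CPM in untreated replicates 1, 3 and 2 and 809.8, 755.1 and 537.2 CPM in dox-treated replicates 1, 2 and 3. The order was not particular to that list. Stem cell markers had it too (128.4, 114.6 and 62.9 CPM, then 332.5, 294.6 and 139.0 CPM). So did the genes known as Krüppel-like factor targets in other cells (97.8, 89.8 and 67.5 CPM, then 248.8, 181.8 and 132.4 CPM). Both of these sums were higher with dox, unlike Klf2 and Klf4. The part of any list in the Klf2 and Klf4 values was not tested. Within a library, ratios of reads do not depend on how libraries were scaled, and the following pairs were chosen after their values were seen. Reads of Klf2 over reads of Klf4 were 4.54, 4.80 and 4.13 in the untreated libraries and 4.81, 4.44 and 8.55 in the dox-treated ones, so the ratio moved little outside dox-treated replicate 3. Reads of Klf5 over reads of Klf4 were 0.551, 1.57 and 0.326 without dox and 3.58, 6.0 and 6.45 with it, and reads of Klf5 over reads of Klf2 were 0.121, 0.326 and 0.0789 without dox and 0.745, 1.35 and 0.755 with it. Both ratios were higher in each dox-treated library than in any untreated one.

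Klf9 is induced by glucocorticoids and by thyroid hormone in several tissues and acts mainly as a repressor. It lies at chr19:23215716-23241401 on the plus strand of NCBIM37. It was at 33.3, 28.8 and 42.6 CPM in untreated replicates 1 to 3 and at 18.1, 19.9 and 24.5 CPM in dox-treated replicates 1 to 3. All dox-treated values lay below all untreated ones, and replicate 3 was highest in both groups. The log2 difference was -0.74 (SE 0.19, 95% interval -1.21 to -0.27, adjusted p = 0.0725, limma), and the exact permutation test gave p = 0.1. Klf9 passed when dox-treated replicate 3 was left out, at -0.86 (adjusted p = 0.0334, limma, range over the alternatives 0.00646 to 0.216). The level rests on 245 to 468 reads a library. Set against Klf7 within each library, 1.32, 1.61 and 0.924 reads of Klf7 were counted for each read of Klf9 in dox-treated replicates 1 to 3, and 0.215, 0.172 and 0.16 in untreated replicates 1 to 3, a pair likewise chosen after its values were seen.

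Klf3 and Klf13 were the most abundant members. Klf3, the CtBP-recruiting repressor at chr5:65194628-65221368 on the plus strand, was at 67.7, 64.2 and 79.8 CPM in untreated replicates 1 to 3 and at 63.7, 64.4 and 66.8 CPM in dox-treated replicates 1 to 3. The dox-treated values formed a narrow band that held untreated replicate 2 and lay just under replicate 1, while untreated replicate 3 was well above it. The log2 difference was -0.11 (95% interval -0.41 to 0.18, adjusted p = 0.55, limma). Klf13, an activator of Ccl5 in T cells at chr7:71031237-71083801 on the minus strand, was at 102.2, 112.8 and 124.1 CPM in untreated replicates 1 to 3 and at 99.7, 116.5 and 90.5 CPM in dox-treated replicates 1 to 3. The groups overlapped, and the log2 difference was -0.15 (95% interval -0.49 to 0.20, adjusted p = 0.509, limma). These intervals leave room for a fall to 0.755 of the untreated level for Klf3 and to 0.711 for Klf13.

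Klf10 and Klf6 did not pass the test and overlapped between groups. Klf10, first known as a gene induced early by TGF-beta, lies at chr15:38221219-38230464 on the minus strand and was at 38.1, 29.2 and 29.3 CPM in untreated replicates 1 to 3 and at 34.4, 25.7 and 34.3 CPM in dox-treated replicates 1 to 3. Its log2 difference was -0.03 (95% interval -0.47 to 0.40, adjusted p = 0.913, limma), and its sign turned with plain library totals (0.08) and without dox-treated replicate 2 (0.11) or untreated replicate 1 (0.09). Klf6, needed for blood formation in the yolk sac and active in macrophages, lies at chr13:5860735-5869639 on the plus strand and was at 37.7, 22.1 and 37.7 CPM in untreated replicates 1 to 3 and at 48.1, 41.2 and 19.7 CPM in dox-treated replicates 1 to 3. Dox-treated replicates 1 and 2 lay above all untreated libraries and replicate 3 below them. The log2 difference was 0.11 (95% interval -0.87 to 1.08, adjusted p = 0.875, limma), an interval that spans 0.549-fold to 2.11-fold, and without dox-treated replicate 3 it was 0.50 (adjusted p = 0.225, limma, range 0.225 to 0.975). Klf12, which represses the gene for AP-2 alpha, was not listed, so no level is given.

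**Figure D2:**
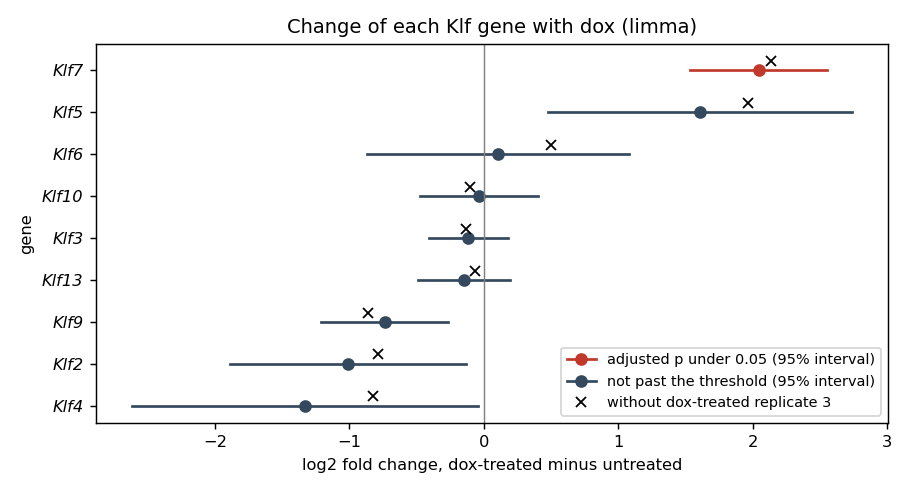
Log2 fold change of each listed member (dox-treated minus untreated, limma), with lines for 95% intervals, red for an adjusted p under 0.05 and crosses for the value without dox-treated replicate 3. Klf7 is the 1 red gene at 2.04, and the crosses lie inside all intervals, farthest from the dot for Klf4 at -0.83 against -1.33.

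Read against all genes, the 9 tested members were mixed in direction. At an adjusted p under 0.05, 1 of 9 members rose and none fell, beside the 4.59% and 3.18% of all genes tested. At an unadjusted p under 0.05 (limma), 2 members were higher (Klf7 and Klf5) and 3 lower (Klf9, Klf2 and Klf4), beside 15.6% and 13.6% of all genes. Every dox-treated library lay above every untreated one in 2 members, Klf7 and Klf5, where 17.7% of all genes did so, and below in 1, Klf9, where 18.2% did so. Without dox-treated replicate 3, 2 members were higher (Klf7 and Klf5) and 1 lower (Klf9) at an adjusted p under 0.05 (limma), beside 14.9% and 14.0% of all genes. The median log2 difference over the 9 members was -0.11, and that of all genes tested was -0.03.

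Levels of different genes were compared as CPM per kilobase (kb) of mean annotated transcript length. In untreated MEPs Klf3 (33.5 CPM per kb ± 3.90, SD, n = 3) and Klf13 (32.3 ± 3.13) led with overlapping ranges. A gap separated them from Klf10 (11.6 ± 1.85), Klf9 (10.7 ± 2.16), Klf2 (9.45 ± 3.71) and Klf6 (7.70 ± 2.14), whose neighbours in this order overlapped. Below a further gap came Klf7 (2.73 ± 0.511), Klf4 (2.13 ± 0.855) and Klf5 (1.53 ± 0.636), again with overlapping neighbours. With dox, Klf3 (30.8 ± 0.769) and Klf13 (29.2 ± 3.77) still led, Klf10 (11.3 ± 1.79) and Klf7 (11.2 ± 2.20) followed with overlapping ranges, then Klf6 (8.62 ± 3.51), Klf9 (6.38 ± 1.01), Klf5 (4.65 ± 1.92) and Klf2 (4.58 ± 1.34), and Klf4 was last (0.887 ± 0.440) and apart from Klf2. Klf7 thus ranked 7 of the 9 members without dox and 4 with it. This rank rests on the length used: its 5 annotated transcripts average 2328 bases and the longest has 7664, and per longest transcript Klf7 ranked 9 without dox and 8 with it.

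The summed level of the 9 members was 115.1, 98.4 and 121.3 CPM per kb in untreated replicates 1 to 3 and 110.2, 114.8 and 98.1 CPM per kb in dox-treated replicates 1 to 3, with overlapping groups. Its make-up differed more than its total. Klf7 took 2.68%, 2.18% and 2.43% of the sum in untreated replicates 1 to 3 and 9.28%, 12.0% and 9.90% in dox-treated replicates 1 to 3. Klf5 took 1.51%, 2.07% and 0.675% without dox and 4.33%, 5.67% and 2.72% with it, with no overlap. Klf9 took 8.87%, 8.96% and 10.8% without dox and 5.02%, 5.32% and 7.65% with it, also apart. Klf2 took 5.88% to 11.5% without dox and 3.35% to 5.41% with it, and Klf4 1.23% to 2.52% and 0.404% to 1.13%. These shares are of a sum that holds Klf7 and Klf5, and as CPM per kb both genes overlapped between the groups (Klf2 at 5.96 in dox-treated replicate 1 and 5.78 in untreated replicate 2, and Klf4 at 1.25 and 1.21 in the same libraries). Klf3, at 26.6% to 32.3%, and Klf13, at 25.4% to 32.8% over the 6 libraries, had the largest shares. These shares too rest on the length used: per longest transcript Klf7 took 0.849% to 1.01% without dox and 3.68% to 4.94% with it, Klf13 took 17.2% to 23.0% and Klf3 29.8% to 36.9%, and the ranges of Klf7, Klf5 and Klf9 stayed apart between the groups.

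**Figure D3:**
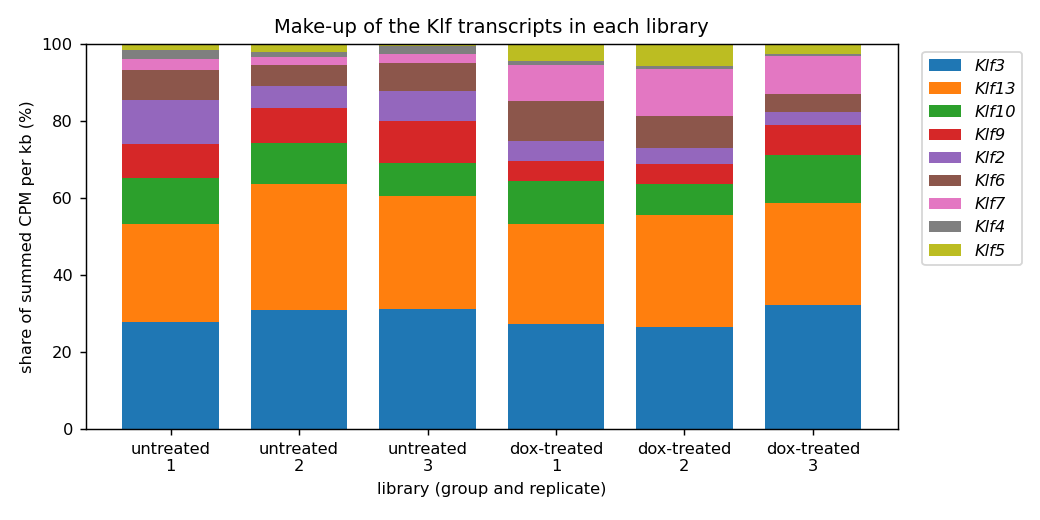
Share of each Klf gene in the summed CPM per kb of the 9 listed members, per mean annotated transcript length, stacked to 100% for each library. Klf7 takes 2.18% to 2.68% in untreated and 9.28% to 12.0% in dox-treated libraries, values that are lower per longest transcript (0.849% to 1.01% and 3.68% to 4.94%).

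Among the related Klf and Sp genes, 8 of 15 were listed, and none passed the test in either direction, with a median log2 difference of 0.02. At an unadjusted p under 0.05, 1 was higher and 2 were lower (limma), beside 15.6% and 13.6% of all genes. Klf8, a CtBP-dependent repressor close to Klf3, was at 4.24 to 5.73 CPM without dox and 6.96 to 8.70 CPM with it (0.69, SE 0.16, adjusted p = 0.055, limma). Klf16, a GC-box-binding relative of Klf13, was at 61.8 to 70.7 CPM and 44.2 to 51.8 CPM (-0.49, SE 0.12, adjusted p = 0.0573, limma). Klf1 was at 338.7, 384.8 and 314.5 CPM in untreated and 195.7, 190.9 and 310.7 CPM in dox-treated replicates 1 to 3 (-0.61, SE 0.22, adjusted p = 0.133, limma). Without dox-treated replicate 3, Klf1 (-0.83) and Klf16 (-0.48) passed, while over all alternatives the adjusted p-value ran from 0.0062 to 0.344 for Klf1 and from 0.0169 to 0.211 for Klf16 (limma).

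All 12 genes of proteins that act with Krüppel-like factors were listed, among them the CtBP, Sin3 and histone deacetylase co-repressors, and none passed the test, with a median log2 difference of 0.10. At an unadjusted p under 0.05, 3 were higher and none lower (limma), beside 15.6% and 13.6% of all genes. The smallest p-values were those of the acetyltransferase gene Kat2b (0.41, adjusted p = 0.0735, limma) and of Sin3b (0.32, adjusted p = 0.0855). Leaving out dox-treated replicate 3, 4 of the 12 were higher and 2 lower at an adjusted p under 0.05 (limma), beside 14.9% and 14.0% of all genes.

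Of 13 regulators known to act upstream of Klf genes, including the Map2k5, Mapk7 and Mef2 cascade that induces Klf2 and Klf4 in endothelium, 1 rose and none fell, with a median of 0.02. Mef2a, a MADS-box transcription factor, was at 32.4, 29.8 and 32 CPM in untreated replicates 1 to 3 and at 53.3, 51.1 and 51.6 CPM in dox-treated replicates 1 to 3. The groups were tight and far apart (0.73, SE 0.10, adjusted p = 0.0158, limma). The adjusted p-value of Mef2a was under 0.05 in 12 of 18 alternative fits (0.00199 to 0.106, limma), and it was lost when any library but dox-treated replicate 3 was left out. Without dox-treated replicate 3, 5 of the 13 were higher and 1 lower, beside 14.9% and 14.0% of all genes.

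Of 12 genes known as targets of Krüppel-like factors in other cells, 10 were listed, with 1 lower, none higher and a median of 0.35. The chemokine gene Ccl5, which Klf13 activates in T cells, was at 1.59, 2.48 and 2.87 CPM in untreated replicates 1 to 3 and at 0.41, 0.34 and 0.74 CPM in dox-treated replicates 1 to 3. It fell (-2.27, SE 0.36, adjusted p = 0.0241, limma), with as few as 4 reads in a library. The call held in 10 of 17 alternative fits (adjusted p 0.00205 to 0.0894, limma) and was lost when any library but dox-treated replicate 3 was left out. Klf13 itself did not pass the test. Without dox-treated replicate 3, 5 of the 10 were higher and 2 lower, beside 14.9% and 14.0% of all genes.

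Immediate-early genes, which respond to handling of cells and to growth factors, were 19 of 21 listed, with 1 higher, 1 lower and a median of 0.30, and with 3 higher and 1 lower without dox-treated replicate 3 (limma). Over all genes, that fit called 14.9% higher and 14.0% lower. Ier5 was at 28.9 to 31.4 CPM without dox and rose to 48.0 to 56.1 CPM with it (0.78, SE 0.11, adjusted p = 0.0181, limma), and Gadd45b fell (-1.03, SE 0.22, adjusted p = 0.048, limma). The adjusted p-value was under 0.05 in 12 of 18 alternative fits for Ier5 and in 6 of 17 for Gadd45b (limma). Over the alternatives it reached 0.109 for Ier5 and 0.173 for Gadd45b. Their summed level was 971.8 to 1272 CPM without dox and 890.5 to 1572 CPM with it, with overlapping groups, and dox-treated replicate 3 was the lowest of the 6 libraries, as it was for Klf2, Klf4, Klf6 and Klf13 but not for Klf3, Klf5, Klf7, Klf9 and Klf10. Their part in the Klf values was not tested.

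All 11 genes induced by glucocorticoids in many cells were listed, and 2 fell and none rose, with a median of -0.07. Leaving out dox-treated replicate 3, 3 fell and 2 rose (limma), beside 14.0% and 14.9% of all genes. Cebpd, also a gene of granulocytes and monocytes, was at 15.6, 7.5 and 11.8 CPM in untreated and 1.88, 1.67 and 1.19 CPM in dox-treated replicates 1 to 3 (-2.84, SE 0.31, adjusted p = 0.0114, limma). The metallothionein gene Mt1 fell too (-0.75, SE 0.15, adjusted p = 0.0412, limma). Over the alternatives the adjusted p-value reached 0.053 for Cebpd and 0.151 for Mt1. The summed level of the list was 425.5 to 443.7 CPM without dox and 328.1 to 353.6 CPM with it. Much of that difference lay in Mt1 (mean 182.9 CPM without dox and 109.5 CPM with it) and Mt2 (95.3 and 51.9 CPM). Of the 11 genes, 5 had higher means with dox, and Tsc22d3 (0.85, adjusted p = 0.102, limma) and Ddit4 (0.63, adjusted p = 0.169) were higher in each dox-treated library than in any untreated one. Tsc22d3 (1.07, adjusted p = 0.0307, limma) and Nfkbia (1.13, adjusted p = 0.0134) were the 2 that rose without dox-treated replicate 3.

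**Figure D4:**
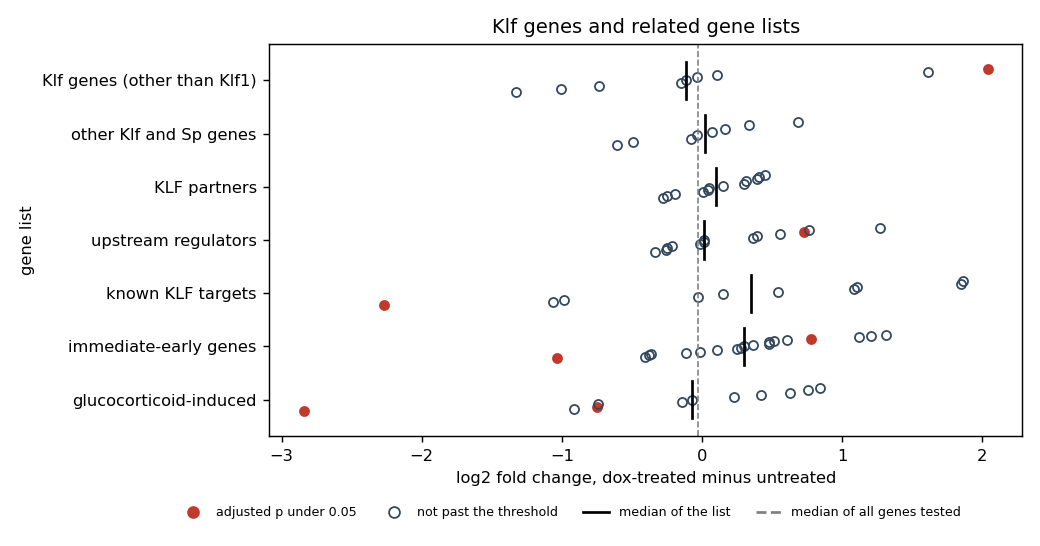
Log2 fold change (dox-treated minus untreated, limma) of the listed genes of each list, 1 point a gene, filled red for an adjusted p under 0.05, with a black bar at the list's median and a dashed line at the median of all genes tested, -0.03. The 9 members spread from -1.33 to 2.04 around a median of -0.11, and in the related lists the red genes are Mef2a, Ccl5, Ier5, Gadd45b, Cebpd and Mt1.

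For the 3 members with the smallest p-values, the genes with the most similar pattern were taken by Pearson's r of log2 values over the 6 libraries, among the 9992 genes that averaged 5 CPM or more. Klf7 was most like Scamp1 (0.997), Crbn (0.996) and Mblac2 (0.996). Scamp1 was at 67.6 to 75.7 CPM with dox and 37.1 to 43.8 CPM without, and Crbn at 67 to 77.1 CPM and 36.5 to 45.1 CPM, so the shape was alike while the spread between groups was smaller than that of Klf7. Klf9 was most like Pcdh7 (0.992), Abcb9 (0.989) and the mitochondrial mt-Nd5 (0.985). Klf5 was most like Rybp (0.990), Ncoa7 (0.988) and Thnsl1 (0.986). With 6 libraries in 2 groups, an r of over 0.95 with Klf7 was reached by 399 genes, with Klf9 by 39 and with Klf5 by 33, and the difference between the groups enters every r, so the values describe these libraries only.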

How the data were processed

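The authors removed adapters with cutadapt, quantified reads with RSEM on the NCBIM37 transcriptome and normalized with limma, and deposited 1 table of log2 CPM values, with 0.5 reads added, for 3 dox-treated and 3 untreated libraries. Their filter on low genes and their use of strand are not given in the sources used here. CPM levels printed here are antilogs of the deposited values. Reads were recovered from the step of each library, and 100% of values fell on whole reads (largest deviation 6.64e-09). Libraries held 11264803 to 16153600 reads on listed genes.

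Genes were tested where 3 or more libraries reached 1 CPM (12088 of 12101) with limma 3.58.1 (lmFit and eBayes, R 4.3.3), without a block and with Benjamini-Hochberg adjustment over all genes at 0.05. A count model was not the main test, since the deposited values are logs, and voom weights on the recovered reads were an alternative. Symbols, positions and lengths came from the GENCODE annotation of NCBIM37, which matched 12067 IDs. The Ensembl release used by the authors differs from it. The fit was tested on simulated reads with a set dispersion of 0.05, which was not taken from these data. Changed genes averaged 5 CPM or more. The fit recovered 49.4% of 2-fold, 99% of 3-fold and 100% of 4-fold changes, with 6.31% false among calls. Changes near 2-fold can therefore be missed.

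The members and lists were chosen with earlier results of these data known. Named were all members, Klf1, Nanog, up to 4 called genes of each list by smallest p (2 with the smallest p where none passed), and the 3 genes most correlated with each of the 3 members of smallest p. Gm17427 was added for its overlap with Klf7. Kit, Hbb-b1, Alas2, Car1, Car2, Itga2b, Gzmb, Mcpt8, Kdr, Emcn, Mt2, Tsc22d3, Ddit4 and Nfkbia were named after their values were seen. Alternatives changed the pseudocount, filter, variance model, weights, scaling, block, threshold and libraries.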

Additional observations from a re-analysis of the deposited data

How the results depend on the processing

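The scarcest members rested on few reads (11 to 69 a library for Klf4 and 15 to 150 for Klf5), and their 95% intervals were the widest of the 9 members. Klf7 kept its direction under all 18 alternative fits and an adjusted p under 0.05 under 17 of them. The exception was the replicate block, at 0.0654. Same-numbered libraries did not deviate together (correlations 0.0184, -0.1209 and -0.2988), so the numbers were not taken as pairs. That replicate block left 53 genes higher and 29 lower over all genes and called Klf5 (adjusted p = 0.0471, limma). Members called higher were 2, in place of 1, with array quality weights, with the replicate block and voom weights, at an adjusted p under 0.1 and at an unadjusted p under 0.05, and 1 to 2 when each library was left out. Members called lower, none in the reported fit, were 3 with array quality weights, 1 with a mean-variance trend, 2 with quantile normalization (Klf2 and Klf4), 1 with the replicate block and voom weights, 1 at an adjusted p under 0.1 and 3 at an unadjusted p, and 0 to 1 when each library was left out. Over all genes, 555 were higher and 384 lower, against 2515 and 2601 with array quality weights, 909 and 747 with a mean-variance trend, 1273 and 939 at an adjusted p under 0.1, and 1888 and 1645 at an unadjusted p. Quantile normalization gave 648 and 537, and the replicate block with voom weights 575 and 351. Leaving out 1 library gave 92 to 1801 higher and 36 to 1687 lower genes, and the high ends were without dox-treated replicate 3. Every other library left out lowered the counts, to 101 and 80 without dox-treated replicate 1, 92 and 91 without dox-treated replicate 2, 136 and 79 without untreated replicate 1, 143 and 126 without untreated replicate 2, and 99 and 36 without untreated replicate 3. In the related lists, leaving out any library but dox-treated replicate 3 left 0 genes called among upstream regulators, targets, partners and relatives, 0 to 1 among immediate-early genes and 0 to 1 among glucocorticoid-induced genes. The sign turned for Klf6 (log2 differences of -0.151 to 0.498 when each library was left out, -0.145 and -0.033 without dox-treated replicates 1 and 2) and for Klf10 (0.076 with plain library totals and -0.105 to 0.105 when each library was left out). Plain library totals moved the median log2 difference of all genes from -0.026 to 0.084. The cause of these shifts was not tested.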
